A study of Homo sapiens with 8 samples.

Results

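Long noncoding and host-gene RNAs were followed in AB8, a podocyte-derived human line; podocytes are the epithelial cells that wrap the capillaries of the kidney glomerulus. Members were chosen by symbol and by level. The symbol had to start with LINC or SNHG, to start with MIR and end with HG, or to be GAS5, MALAT1 or NEAT1, and the mean over all libraries had to reach 1 CPM (the count divided by the library total and multiplied by 1000000). Of 1980 such symbols in the count table, 770 had at least 1 read and 132 passed. They were 2 nuclear body RNAs, 21 small nucleolar RNA (snoRNA) hosts, 18 microRNA (miRNA) hosts and 91 RNAs with a LINC symbol.

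Total RNA was sequenced from 4 libraries of induced cells, given doxycycline for 48 h, and from 4 libraries of non-induced cells, kept without it. All 8 libraries came from AB8 cells that carry the modification pIND21_hCrb2+GFP_S267A, at passage 3-8 after it. CRB2, a membrane protein of the Crumbs complex, helps set epithelial polarity, and the comparison asks what differs once its S267A form with GFP is expressed. The labels give neither the number of clones nor what a replicate number stands for. No library with doxycycline and without the construct was analysed here, so the drug, GFP, CRB2 and the S267A change cannot be told apart.

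The libraries held 16829454 to 23081616 counted reads, and a count of 0 allows up to 3 reads, or 0.12997 to 0.178 CPM by library. CRB2 itself had 1734, 4252, 4599 and 4481 CPM in induced cells, against 8.31, 26.01, 26.4 and 21.8 CPM in non-induced cells. Here and below, CPM values in sets of 4 are in the order of libraries 1 to 4 and use library totals scaled by TMM. Its log2 change was 7.51 (edgeR quasi-likelihood test, adjusted p = 0.0015995; exact two-sided permutation p = 0.0286, the smallest that 4 against 4 libraries allow). Of the podocyte markers, NPHS1 (nephrin) had 3 reads in all 8 libraries together, while WT1, SYNPO, PODXL and VIM were read in all of them. The summed podocyte list ranged from 2362 to 3299 CPM in induced and from 2575 to 3517 CPM in non-induced libraries. That list includes VIM, and only 5 of its 8 genes passed the filter for testing, so its sum alone does not show podocyte identity. The summed tubular, endothelial and leukocyte lists each stayed under 4 CPM in every library, with KDR and LRP2 at 0 and PTPRC at 1 read in all. The leukocyte sum did not overlap between groups, at 2.19 to 2.94 CPM in induced and 3.41 to 3.92 CPM in non-induced libraries, and CSF1R of that list was lower in 4 of 4 pairs (log2 change -0.65 with the replicate block described next, edgeR adjusted p = 0.0586, and 0.0266 without pair 1). Without pair 2, 3 or 4, CSF1R did not pass (edgeR adjusted p = 0.167, 0.245 and 0.140). The mesangial list summed to 12.3 to 17.6 CPM in induced and 10.9 to 12.9 CPM in non-induced libraries, nearly all from PDGFRB, and ITGA8 had 0 reads. With the block, PODXL, PDGFRB and the proliferation gene MKI67 were higher in induced cells (log2 changes 0.49, 0.34 and 0.13, edgeR adjusted p = 0.03504, 0.0299 and 0.02396). Without pair 1, PODXL and PDGFRB did not pass (adjusted p = 0.0874 and 0.119) and MKI67 did (0.0433), and without pair 4 none of the 3 passed. The part of these markers in the results below was not tested. In both groups the library numbered 1 stood apart from the libraries numbered 2 to 4. Deviations from the group means correlated at 0.911, 0.704, 0.707 and 0.648 between the libraries numbered 1, 2, 3 and 4, across 11502 genes that are not independent replicates. Libraries 2 to 4 with unlike numbers also correlated, at 0.3495 to 0.667, and library 1 ran from -0.775 to -0.617 against unlike numbers. The group means include library 1, so libraries 2 to 4 lean the same way whatever their number. The comparisons are therefore given without the replicate number and with the number as a block. In bulk RNA, fewer cells of a type and less RNA per cell cannot be told apart.

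Host genes are transcribed for what their introns or hairpins hold. A snoRNA host is spliced, its introns are trimmed to snoRNAs that guide modification of ribosomal and other RNAs, and the spliced remainder, which often starts with a run of pyrimidines (a 5′ terminal oligopyrimidine, or TOP, start), is in many cases removed by nonsense-mediated decay. An miRNA host carries a hairpin that DROSHA and then DICER1 cut to the mature miRNA. NEAT1 is the architectural RNA of paraspeckles and MALAT1 lies in nuclear speckles, and most LINC symbols are placeholders for intergenic transcripts with no settled function.

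The miRNAs carried by the hosts described below are shown because the count table measures the host transcript and not the mature miRNA. In these RefSeq sequences (GRCh38.p14), written 5′ to 3′, capitals mark the seed, bases 2 to 8, which pairs with targets.
hsa-miR-210-3p: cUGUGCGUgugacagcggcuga
hsa-miR-503-5p: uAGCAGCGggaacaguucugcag
hsa-miR-146a-5p: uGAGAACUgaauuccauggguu
hsa-miR-221-3p: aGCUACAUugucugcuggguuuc
hsa-miR-222-3p: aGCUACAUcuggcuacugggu
hsa-miR-4458: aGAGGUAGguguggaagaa
hsa-let-7b-5p: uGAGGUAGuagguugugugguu
The miRNAs miR-221-3p and miR-222-3p, both from MIR222HG, share the seed GCUACAU. The seed GAGGUAG of the let-7 family is carried by 3 of the 18 miRNA hosts, MIRLET7BHG, MIR100HG and MIR4458HG, the last through miR-4458.

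The start sites of 6 abundant snoRNA hosts are shown for their pyrimidine runs. Each window holds 10 bases before and 20 bases from the RefSeq start site (GRCh38.p14), on the strand of the gene, with the longest unbroken run of C and T in capitals.
GAS5: tcatgaattcagatgtgtttaTTTTggagc
SNHG5: gcacttcggTCTTTTacgtcggccttcgcg
SNHG16: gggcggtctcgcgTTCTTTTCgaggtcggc
SNHG1: gagattcgttctcaTTTTTCTactgctcgt
SNHG3: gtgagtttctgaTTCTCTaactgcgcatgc
SNHG7: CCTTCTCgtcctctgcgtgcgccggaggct
A run of 7 or more pyrimidines lay in this window of 9 of 17 snoRNA hosts with a RefSeq promoter, in 5 of 18 miRNA hosts and in 12 of 70 LINC genes, against 19.1% of 27305 promoters of all genes. The longest run had a median of 7 bases in snoRNA hosts and of 4 bases over all promoters. RefSeq and the GENCODE 29 models place some starts apart. For GAS5, on the minus strand of chromosome 1, the RefSeq start is 173869045 and the GENCODE model starts at 173868882, so its window lies upstream of that model. A run could lie anywhere in the window, and that of SNHG7 lies wholly before the start site, so the counts are not counts of TOP starts. The windows describe letters and were not set against the changes.

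By abundance the class was led by a few RNAs. The 132 RNAs together took 0.290 to 0.366% of reads in induced and 0.289 to 0.352% in non-induced libraries. Their median was 5.13 CPM, 65 of them lay under 5 CPM and 12 reached 50 CPM, and NEAT1 was highest at 619 CPM in the mean of 8 libraries (library totals). Levels between genes were compared per length, as RPKM, reads per kilobase of merged exons and 1000000 reads of the library. On that scale the order was SNHG19 (81.2 RPKM), SNHG5 (73.3), GAS5 (68.7), SNHG6 (68.1) and SNHG8 (58.6), and NEAT1, whose exons span 22767 bases, was ninth at 27.2 RPKM. The median was 12.4 RPKM over snoRNA hosts, 1.34 RPKM over miRNA hosts and 1.505 RPKM over LINC genes. Only 1 LINC gene, LINC00973, was among the 10 highest (25.5 RPKM). These levels chose the members and are a description. At the threshold, LINC01569 (1.12 CPM) and LINC01711 (1.06 CPM) were just inside, and LINC01465 (0.970 CPM) and LINC01004 (0.945 CPM) just outside.

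**Figure D1:**
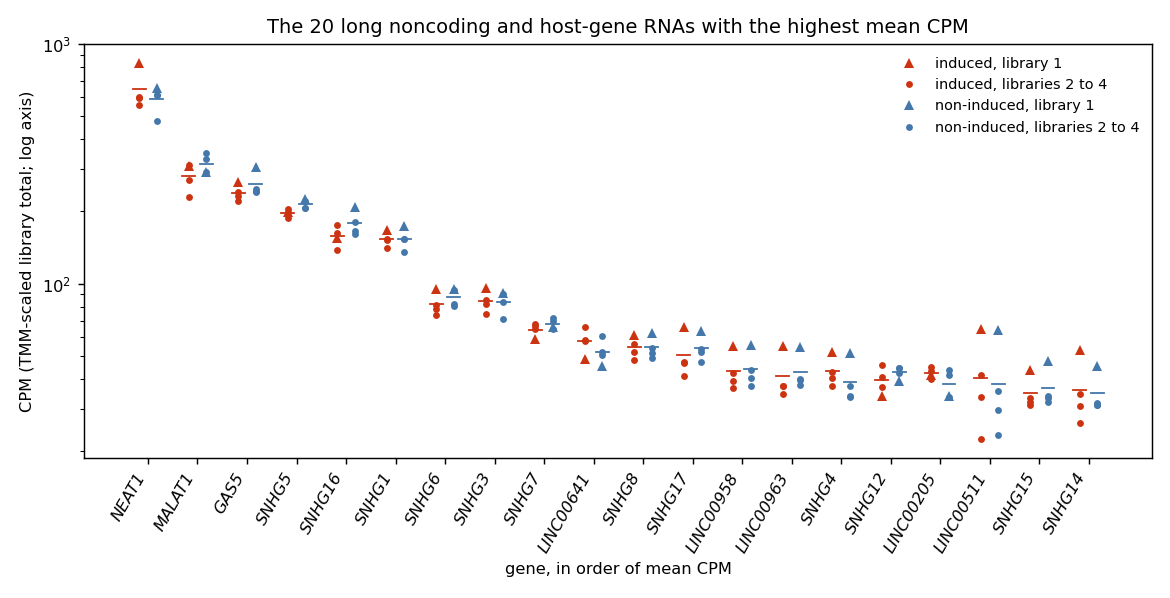
CPM (TMM-scaled library totals, log axis) of the 20 long noncoding and host-gene RNAs with the highest mean, with induced libraries in red left of non-induced libraries in blue, triangles for the libraries numbered 1 and short lines for the group means. The symbols of the 2 groups overlap for 19 of the 20, and the exception is SNHG5, at 188 to 204 CPM in induced and 206 to 225 CPM in non-induced libraries.

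Without the block, none of the 132 RNAs passed the threshold (edgeR quasi-likelihood test, Benjamini-Hochberg adjusted p under 0.05 over 15637 tested genes), 11 had an unadjusted p under 0.05, and DESeq2 called 0. The same test called 6 of all tested genes, or 0.0384%. With the replicate number as a block, 16 of the 132 passed (12.1%), 8 higher and 8 lower in induced cells, against 13.8% of all tested genes, 7.51% higher and 6.29% lower. The share of called RNAs was thus near that of all genes. Without pair 1, 13 passed, 5 higher and 8 lower, of which 10 were among the 16, against 10.9% of all tested genes. DESeq2 with the block called 8, all among the 16, and gave no adjusted p for 31. By class, 0 of 2 nuclear body RNAs, 1 of 21 snoRNA hosts (4.76%), 1 of 18 miRNA hosts (5.56%) and 14 of 91 LINC genes (15.4%) were called, against 13.8% of all tested genes. The median log2 change with the block was -0.03 over the 132 RNAs and 0.00 over all tested genes, and only 2 RNAs changed by 2-fold or more. The sign was the same in 4 of 4 pairs, higher in induced cells, for 17 of the 132 (12.9%), against 18.6% of all tested genes, and lower for 20 (15.2%), against 17% of all. All 132 RNAs passed the filter on low counts.

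**Figure D2:**
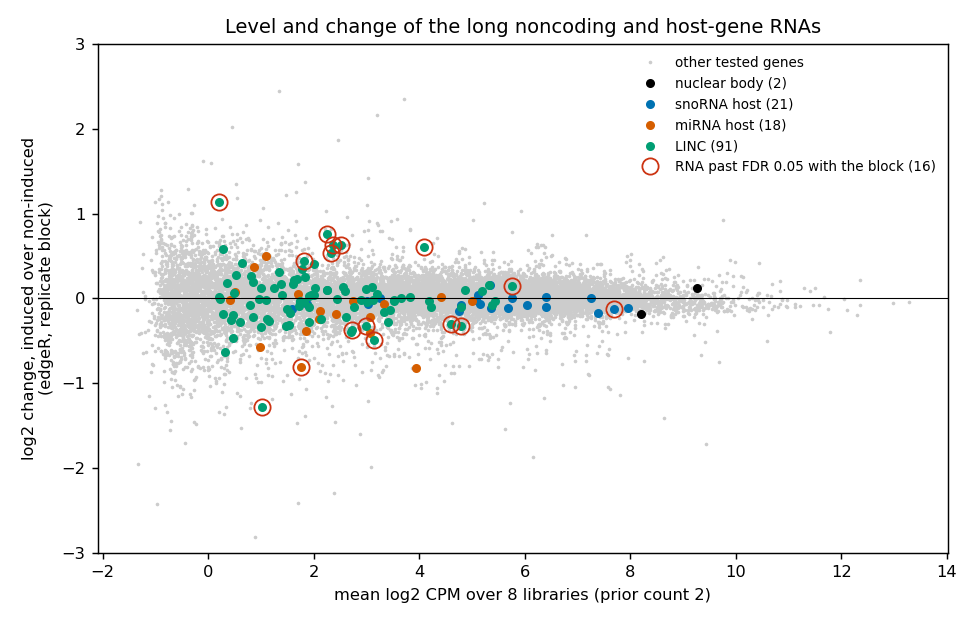
Mean log2 CPM over 8 libraries (x axis, prior count 2) and log2 change, induced over non-induced, from edgeR with the replicate block (y axis), for all tested genes in grey and the 132 RNAs in colour by class, with rings on the 16 past an adjusted p of 0.05. The rings sit between -1.28 and 1.13, and 2 tested genes lie beyond the plotted range of 3 on either side.

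Neither nuclear body RNA passed either test. NEAT1 (ENSG00000245532, chr11:65422774-65445540, plus strand) had 835, 558, 593 and 599 CPM in induced cells, against 658, 479, 614 and 613 CPM in non-induced cells. The groups overlapped, and both libraries numbered 1 were the highest of their group. The log2 change was 0.13 without the block (adjusted p = 0.881) and 0.12 ± 0.07 (SE) with it (edgeR, adjusted p = 0.315); without induced library 1, the unblocked value was -0.02. MALAT1 (ENSG00000251562, chr11:65497688-65506516, plus strand), which lies downstream of NEAT1 on the same strand, had 310.00, 312, 269.5 and 229 CPM in induced cells, against 293, 291, 329.8 and 351 CPM in non-induced cells. The groups overlapped, and the pairs went both ways, with log2 ratios of 0.08, 0.10, -0.29 and -0.62 in pairs 1 to 4. Its log2 change was -0.18 ± 0.16 with the block (edgeR, adjusted p = 0.566). Among 21 genes of paraspeckle proteins, 0 passed without the block, and with it DAZAP1, an RNA-binding paraspeckle protein, was lower in induced cells, at 239 ± 7.52 CPM in induced cells and 263 ± 8.41 CPM in non-induced cells (SD, n = 4 each; log2 change -0.14, edgeR adjusted p = 0.0274). DAZAP1 did not pass without pair 1, 3 or 4 (edgeR adjusted p = 0.0776, 0.0536 and 0.121) or by DESeq2 with the block (0.0586). Over all tested genes, 6.29% were lower with the block. SFPQ and NONO, the paired core proteins of paraspeckles, averaged 558 ± 23.7 CPM in induced cells and 565 ± 33.3 CPM in non-induced cells and 452 ± 13.4 CPM in induced cells and 443 ± 13.1 CPM in non-induced cells.

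The snoRNA hosts varied less between libraries than the miRNA hosts. Their median SD of log2 CPM between libraries was 0.15 in induced and 0.17 in non-induced cells, against 0.42 in induced and 0.33 in non-induced cells for miRNA hosts. LINC genes had 0.28 in induced and 0.25 in non-induced cells. The median level was 40.9 CPM in snoRNA hosts, 4.32 CPM in miRNA hosts and 3.78 CPM in LINC genes (library totals). The SDs were not adjusted for level, and the part of level in them was not tested. With the block, 16 of the 21 snoRNA hosts had a negative log2 change and 5 a positive one, with a median of -0.07 and values from -0.17 to 0.15. Over all tested genes, 7806 of 15637 log2 changes were negative. Without pair 1 the only snoRNA host called was higher in induced cells. With all pairs 1 passed (4.76%, against 13.8% of all tested genes), and it was lower. That host was SNHG5 (ENSG00000203875, chr6:85660950-85678748, minus strand), which carries snoRNAs of the U50 family. SNHG5 had 199, 188, 198 and 204 CPM in induced cells, against 225, 207, 206 and 221 CPM in non-induced cells, so that every induced library lay below every non-induced one. The fall was small, with a fold of 0.918 and pair ratios of -0.18, -0.14, -0.06 and -0.11 on the log2 scale. With the block SNHG5 reached an adjusted p of 0.03398 (edgeR, log2 change -0.12 ± 0.04 SE), and without it 0.517. The call was lost by DESeq2 (adjusted p = 0.0942) and without pair 1, 2, 3 or 4 (edgeR, 0.0862, 0.0905, 0.0661 and 0.0839).

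GAS5 (ENSG00000234741, chr1:173863900-173868882, minus strand), a host of C/D box snoRNAs whose spliced RNA accumulates when growth stops, had 266, 241, 231 and 221 CPM in induced cells, against 307, 242, 242 and 247 CPM in non-induced cells. The groups overlapped, although all 4 pair ratios were negative, and the non-induced library 1 was the highest of the 8. The log2 change with the block was -0.11 ± 0.04 (edgeR, adjusted p = 0.07401). SNHG16 averaged 158 ± 15.4 CPM in induced cells and 178 ± 21.4 CPM in non-induced cells (SD, n = 4 each), SNHG6 81.99 ± 9.05 CPM in induced cells and 87.8 ± 7.52 CPM in non-induced cells, and SNHG7 64.2 ± 4.03 CPM in induced cells and 67.96 ± 3.32 CPM in non-induced cells. Their adjusted p-values with the block were 0.175, 0.139 and 0.236 (edgeR). SNHG1 and SNHG3, which host the U22 cluster and the U17 snoRNAs, were at nearly equal levels in both groups, SNHG1 at 154 ± 10.7 CPM in induced cells and 154 ± 15.4 CPM in non-induced cells and SNHG3 at 84.7 ± 8.7996 CPM in induced cells and 84.04 ± 9.29 CPM in non-induced cells. Their log2 changes with the block were 0.00 ± 0.04 and 0.02 ± 0.07 (SE), and the sign of both turned under other settings. The host with the highest positive value was SNHG4, with 51.9, 40.4, 42.7 and 37.3 CPM in induced cells, against 51.1, 33.8, 37.4 and 33.5 CPM in non-induced cells. Its log2 change was 0.15 ± 0.05 with the block (edgeR, adjusted p = 0.0538), and it passed without pair 1 (0.20, adjusted p = 0.0330). SNHG11, lower in 4 of 4 pairs without passing, was at 25.5 ± 1.61 CPM in induced cells and 28.2 ± 1.84 CPM in non-induced cells (log2 change -0.15, edgeR adjusted p = 0.0872).

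The guest RNAs inside the hosts could be compared in few cases. GENCODE 29 places 133 snoRNA or scaRNA genes and 37 miRNA genes on the strand of, and inside, 43 of the 132 RNAs. Of these 170 guests, 133 had 0 reads in all libraries, 7 passed the filter on low counts and 0 of the 7 were called with the block (edgeR). Guests that overlap an exon of their host were at 0 reads in 59 of 61 cases, against 74 of 109 guests outside host exons. The many snoRNA genes inside SNHG14 alone made up most of the guests at 0 reads and most of those at 0 outside exons. In the other hosts, most guests outside exons had reads. How reads inside both gene models were counted is not stated by the labels or headers. The guest with the most reads was SNORD104 (chr17:64146083-64146152, plus strand) in SNHG25, and that of the called host SNHG5 is SNORD50B (chr6:85677589-85677658, minus strand). Both are C/D box snoRNAs, shown from GENCODE 29 transcripts (GRCh38), with the C box TGATGA and the D box CTGA in capitals.
SNORD104: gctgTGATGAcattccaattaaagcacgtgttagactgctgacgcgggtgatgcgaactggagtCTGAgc
SNORD50B: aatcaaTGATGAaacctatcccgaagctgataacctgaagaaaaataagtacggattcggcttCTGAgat
In induced cells SNORD104 had 144, 165, 138 and 155 reads, against 186, 151, 134 and 150 reads in non-induced cells. The groups overlapped, and the log2 change with the block was -0.10 ± 0.10 (edgeR, adjusted p = 0.561). SNORD50B, which overlaps an exon of SNHG5, had 0 reads in all 8 libraries, so that the fall of SNHG5 has no counterpart measured for its guest.

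Machinery that acts on these hosts was read from lists chosen by function, and none of the listed genes passed without the block in edgeR (1 did in DESeq2). With the block, 3 of 17 genes of snoRNP cores and their assembly were lower and 0 higher in induced cells, with a median log2 change of -0.07; over all tested genes 6.29% were lower and 7.51% higher. FBL (fibrillarin, the methyltransferase of C/D box particles) was at 318 ± 32.5 CPM in induced cells and 346 ± 42.4 CPM in non-induced cells (SD, n = 4 each; log2 change -0.12, edgeR adjusted p = 0.0429). SNU13, which binds the kink-turn of these RNAs, and PIH1D1, of the assembly chaperone, fell by 0.15 and 0.14 on the log2 scale (edgeR adjusted p = 0.0247 and 0.0388). Without pair 1 none of the 3 passed, and adjusted p was 0.0929, 0.0901 and 0.0977. None of the 3 passed by DESeq2 with the block (0.0873, 0.0695 and 0.161) or without pair 4 (edgeR, 0.169, 0.08202 and 0.154). Of 20 genes of nonsense-mediated decay, 5 were higher and 0 lower with the block, and the median log2 change was 0.05. SMG1, the kinase that phosphorylates UPF1, was at 272 ± 13.5 CPM in induced cells and 236 ± 14.8 CPM in non-induced cells (log2 change 0.20, edgeR adjusted p = 0.00303). SMG1 kept its call by DESeq2 and without any 1 pair. The other 4, SMG5 (0.14), CASC3 of the exon junction complex (0.14), NBAS (0.16) and the 5′ exonuclease XRN1 (0.22), did not pass by DESeq2 with the block (adjusted p = 0.0978, 0.0841, 0.194 and 0.0935) or without pair 4 (edgeR, 0.182, 0.153, 0.1304 and 0.166). Without pair 1, NBAS (0.0682) and XRN1 (0.1101) did not pass either. Among 14 tested non-ribosomal TOP genes, 1 was higher (EEF1A1, the elongation factor, log2 change 0.21) and 1 lower (RACK1, a ribosome-bound scaffold, -0.10) with the block, and without pair 1 only EEF1A1 passed. Without pair 2, 3 or 4 neither passed.

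Of the miRNA hosts, 1 fell and none rose with the block and all pairs. Without pair 3, the only call was 1 other host that was higher in induced cells, and without pair 4 none passed. With the block, 13 of 18 had a negative log2 change and 5 a positive one, with a median of -0.11, against 7806 negative of 15637 tested genes. MIR210HG alone passed (5.56% of the class, against 13.8% of all tested genes). MIR210HG (ENSG00000247095, chr11:565660-568457, minus strand) hosts miR-210, a classic target of hypoxia-inducible factors. It had 2.28, 2.23, 2.71 and 3.05 CPM in induced cells, against 2.04, 5.14, 6.44 and 4.55 CPM in non-induced cells. The non-induced library 1 was the lowest of all 8 and made the groups overlap, while non-induced libraries 2 to 4 lay above every induced library. The pair ratios were 0.15, -1.17, -1.22 and -0.56 on the log2 scale in pairs 1 to 4, so pair 1 went the other way. With the block the fitted log2 change was -0.80 ± 0.20 (edgeR SE, adjusted p = 0.0246); without pair 1 it was -1.03 (adjusted p = 0.00144). The call was lost without the block (adjusted p = 0.439), by DESeq2 (0.0582) and without pair 2, 3 or 4 (edgeR, 0.0822, 0.115 and 0.0887).

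The MIR210HG promoter is shown because the gene is known as a hypoxia target. The 250 bases before and 50 bases after its RefSeq start (GRCh38.p14, chr11:568408-568707, minus strand) hold 1 ACGTG and 1 GCGTG, the core letters of the hypoxia response element, in capitals.
MIR210HG: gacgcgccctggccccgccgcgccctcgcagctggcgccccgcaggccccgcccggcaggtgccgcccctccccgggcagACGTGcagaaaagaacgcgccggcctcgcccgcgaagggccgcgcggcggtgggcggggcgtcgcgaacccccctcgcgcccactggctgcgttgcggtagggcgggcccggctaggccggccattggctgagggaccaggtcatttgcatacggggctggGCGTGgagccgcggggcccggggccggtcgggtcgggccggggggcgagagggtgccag
These letters are common. On either strand, ACGTG or GCGTG lay in 48.4% of 27305 promoters of all genes and in 61 of 106 promoters matched to the 132 RNAs (57.5%), and ACGTG alone in 21.6% and 28.3%. The window of MIR210HG has 80% G and C, against a median of 58.3% over all promoters. The hairpin gene MIR210 inside it had 5 reads in all 8 libraries, too few to compare.

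The other miRNA hosts did not pass with the block and all pairs. MIR503HG, which carries miR-503, had 2.73, 2.7999, 2.0001 and 2.26 CPM in induced cells, against 1.49, 1.49, 2.24 and 1.67 CPM in non-induced cells. The groups overlapped and the log2 change was 0.50 ± 0.20 (edgeR with the block, SE, adjusted p = 0.106). MIR222HG, host of miR-221 and miR-222, which repress the cell cycle inhibitor CDKN1B, had 3.54, 11.6, 9.0005 and 6.46 CPM in induced cells, against 5.97, 10.4, 12.1 and 11.8 CPM in non-induced cells. Both libraries numbered 1 were the lowest of their group, and the adjusted p was 0.147. MIR4458HG averaged 7.75 ± 0.936 CPM in induced cells and 8.97 ± 1.05 CPM in non-induced cells (SD, n = 4 each), with 4 of 4 pairs lower and an adjusted p of 0.126 (edgeR with the block).

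MIR3142HG, named after its values were seen, hosts miR-146a, a feedback repressor of NF-kB signalling. It had 2.28, 18.6, 19.6 and 13.9 CPM in induced cells, against 15.97, 21.6, 26.2 and 25.9 CPM in non-induced cells. The induced library 1 was far below the rest, and the pair ratios of -2.76, -0.21, -0.42 and -0.90 on the log2 scale were all negative. Its log2 change was -0.82 ± 0.45 with the block (edgeR, adjusted p = 0.367) and -0.50 without pair 1 (adjusted p = 0.0330). MIR146A overlaps an exon of the host and had 0 reads in all libraries.

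**Figure D3:**
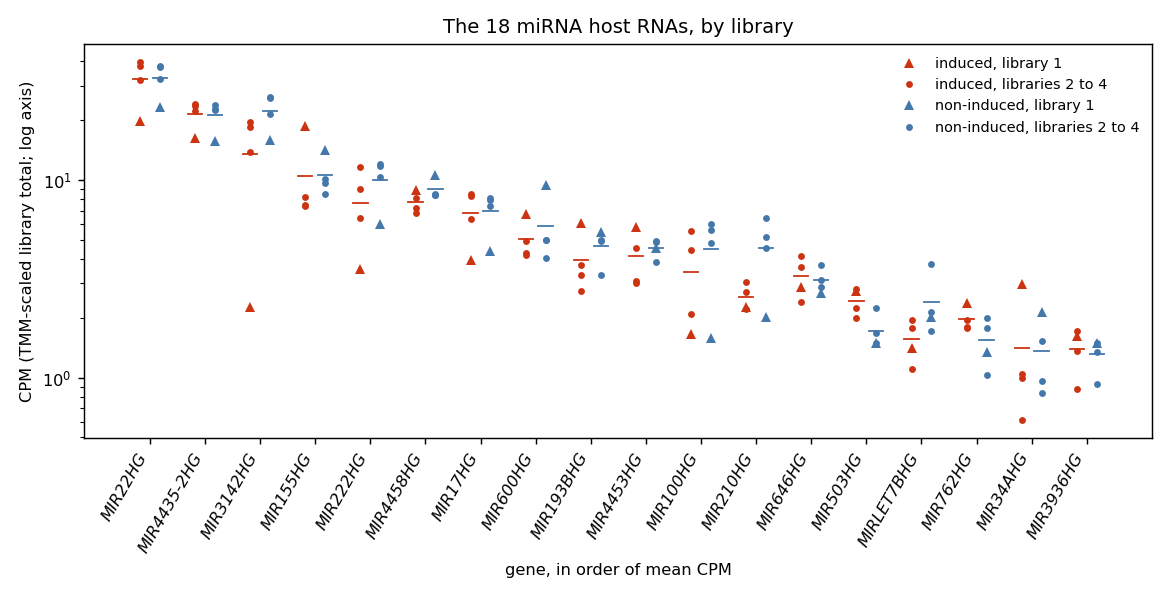
CPM (TMM-scaled library totals, log axis) of the 18 miRNA host RNAs in order of their mean, with induced libraries in red left of non-induced libraries in blue, triangles for the libraries numbered 1 and short lines for the group means. The groups overlap for every host, and for MIR210HG the overlap comes from the non-induced library 1, which had 2.04 CPM while non-induced libraries 2 to 4 had 4.55 to 6.44 CPM.

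Of 17 genes of miRNA processing and silencing, 4 were higher and 0 lower with the block, with a median log2 change of 0.07, against 7.51% of all tested genes higher and 6.29% lower. DICER1, which cuts the hairpin to the mature duplex, had 119, 125, 119 and 118 CPM in induced cells, against 100.1, 105, 106 and 89.005 CPM in non-induced cells. Every induced library lay above every non-induced one, and the log2 change was 0.27 ± 0.04 (edgeR with the block, SE, adjusted p = 0.00114; without the block 0.241). Its partner TARBP2 (log2 change 0.18), the silencing scaffold TNRC6C (0.30) and the helicase DDX17 (0.15) were also higher, with adjusted p of 0.03505, 0.0172 and 0.0107 (edgeR with the block). DICER1 kept its call by DESeq2 and without any 1 pair. TARBP2, TNRC6C and DDX17 passed without pair 1, but none of them without pair 2, 3 or 4 (lowest adjusted p 0.0516, for DDX17 without pair 4), and DESeq2 with the block kept DDX17 alone of the 3. XPO5, which exports the hairpin precursor, passed only without pair 1 or on library totals (adjusted p = 0.0488 and 0.0433, against 0.0663 with all pairs).

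Of the 91 LINC genes, 14 were called (15.4%, near the 13.8% of all tested genes), 8 higher and 6 lower in induced cells. LINC genes make up most of the 132 RNAs and held 14 of the 16 calls, and their median log2 change was -0.01. By GENCODE 29 type, 86 of the 132 RNAs are lincRNAs, 23 processed transcripts, 9 antisense and 7 transcribed unprocessed pseudogenes, and 1, LINC00672, is typed as protein coding. The LINC genes that did not pass numbered 77. LINC00958, the second most abundant LINC gene, was at 43.3 ± 8.09 CPM in induced cells and 44.000 ± 7.89 CPM in non-induced cells (SD, n = 4 each), with a log2 change of -0.03 ± 0.05 (edgeR with the block, adjusted p = 0.7596). LINC02001, called SNHG30 in the current symbol table and named after its values were seen, had 9.26, 9.36, 9.24 and 10.6 CPM in induced cells, against 9.75, 11.8, 13.1 and 11.9 CPM in non-induced cells. All 4 pairs were lower, with a log2 change of -0.28 (edgeR with the block, adjusted p = 0.0514), and it passed without pair 1 (-0.35, adjusted p = 0.0333).

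Across the 16 called RNAs, 15 had the same sign in 4 of 4 pairs. The fit that called them used these same pairs, so the shared signs are no separate support. Groups overlapped for 14 of the 16, and 6 kept the call in all 11 settings tried with the block. Those 6 were LINC02376, LINC01605 and LINC00973, which were lower, and LINC02274, LINC01508 and LINC01111, which were higher. The lowest adjusted p of the 16 without the block was 0.390 (edgeR). Groups did not overlap for 3 RNAs higher in induced cells, against 3.82% of all tested genes, and for 2 lower, against 3.22% of all. They were LINC01547, LINC00674 and LINC01270, and SNHG5 and LINC00920, and of these only LINC00674 and SNHG5 were called with the block.

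LINC02376 (ENSG00000256292, chr12:127274467-127284283, minus strand) showed the largest fall. It had 0.202, 3.15, 2.43 and 1.05 CPM in induced cells, against 0.547, 6.26, 5.51 and 4.13 CPM in non-induced cells. Each induced library was below the non-induced library of its number, and both libraries numbered 1 were far below the others of their group. The log2 change was -1.28 ± 0.18 (edgeR with the block, SE, adjusted p = 0.000462), and -1.27 without pair 1 (adjusted p = 0.000599). LINC01605 on chromosome 8 had 5.62, 8.3997, 7.38 and 8.35 CPM in induced cells, against 7.26, 10.8, 11.6 and 12.5 CPM in non-induced cells. All 4 pairs were lower, and the log2 change was -0.50 ± 0.09 (edgeR with the block, adjusted p = 0.00264). LINC00973 (ENSG00000240476, chr3:98981058-98983096, plus strand) had 27.3, 21.3, 20.5 and 18.6 CPM in induced cells, against 31.98, 25.7, 26.1 and 24.5 CPM in non-induced cells. Its pair ratios were close to each other, -0.23, -0.27, -0.35 and -0.39 on the log2 scale, with a log2 change of -0.31 ± 0.06 (edgeR with the block, adjusted p = 0.00367).

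The falls of 3 further LINC genes lost the call in some settings. LINC00941, known in human skin as a repressor of keratinocyte differentiation, had 3.695, 7.22, 6.76 and 6.198 CPM in induced cells, against 4.18, 9.66, 7.98 and 9.45 CPM in non-induced cells. LINC01116, on chromosome 2 with MTX2 as its nearest coding gene at 291564 bases, had 3.85, 9.76, 8.71 and 7.67 CPM in induced cells, against 4.73, 12.1, 11.8 and 8.91 CPM in non-induced cells. In both RNAs the library numbered 1 was the lowest of its group and every pair was lower, with log2 changes of -0.38 ± 0.10 and -0.32 ± 0.09 (edgeR with the block, adjusted p = 0.0259 and 0.0262). LINC01963 had 17.6, 26.8, 28.2 and 27.9 CPM in induced cells, against 23.9, 29.6, 30.3 and 42.5 CPM in non-induced cells, and a log2 change of -0.32 ± 0.08 (adjusted p = 0.0235). Without pair 4 the adjusted p-values of LINC00941, LINC01116 and LINC01963 were 0.144, 0.05795 and 0.106. Without pair 2 those of LINC00941 and LINC01116 were 0.0804 and 0.0696, without pair 3 that of LINC01116 was 0.158, and without pair 1 that of LINC01963 was 0.0873. DESeq2 with the block kept LINC01963 and gave 0.193 and 0.216 for the other two.

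Among the rises, 3 LINC genes kept the call in every setting. LINC02274 (ENSG00000258586, chr14:73822559-73830135, minus strand) had 4.05, 6.39, 7.71 and 7.46 CPM in induced cells, against 1.54, 4.48, 4.67 and 4.61 CPM in non-induced cells. Outside the libraries numbered 1, every induced library lay above every non-induced one, and the log2 change was 0.76 ± 0.13 (edgeR with the block, SE, adjusted p = 0.00199). LINC01508 (ENSG00000231107, chr9:90300902-90433505, minus strand) had 19.03, 4.11, 4.76 and 6.93 CPM in induced cells, against 14.1, 2.33, 2.71 and 4.19 CPM in non-induced cells. The libraries numbered 1 were several-fold above the rest in both groups, and within every pair the induced library was higher, by 0.43, 0.79, 0.79 and 0.71 on the log2 scale (fitted 0.63 ± 0.11, adjusted p = 0.00175). LINC01111 on chromosome 8 had 9.72, 5.34, 4.38 and 6.88 CPM in induced cells, against 5.07, 3.69, 3.83 and 4.01 CPM in non-induced cells. Its log2 change was 0.63 ± 0.13 (edgeR with the block, adjusted p = 0.00543), and 0.50 without pair 1 (adjusted p = 0.0418).

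The other 5 rises were lost in some settings. LINC02593 (ENSG00000223764, chr1:916865-921016, minus strand) had 7.998, 0.875, 0.429 and 1.26 CPM in induced cells, against 3.03, 0.7003, 0.327 and 0.419 CPM in non-induced cells. Most of its reads came from the libraries numbered 1, and its log2 change of 1.13 ± 0.23 (edgeR with the block, adjusted p = 0.00572) became 0.75 without pair 1 (adjusted p = 0.207). LINC00662 had 41.2, 13.2, 14.8 and 22.9 CPM in induced cells, against 21.7, 11.5, 11.3 and 12.98 CPM in non-induced cells. It was higher in 4 of 4 pairs (0.61 ± 0.12, adjusted p = 0.0109; 0.0731 without pair 4). LINC00472, reported as reduced in human breast tumours, averaged 6.14 ± 2.05 CPM in induced cells and 4.18 ± 1.104 CPM in non-induced cells (SD, n = 4 each; log2 change 0.53, edgeR with the block, adjusted p = 0.0148). LINC00674 had 3.54, 3.67, 4.19 and 4.68 CPM in induced cells, against 2.49, 3.22, 2.85 and 3.23 CPM in non-induced cells, with every induced library above every non-induced one (log2 change 0.44, adjusted p = 0.0405). LINC00641, the most abundant LINC gene at 54.5 CPM in the mean of 8 libraries, averaged 57.4 ± 7.11 CPM in induced cells and 51.96 ± 6.44 CPM in non-induced cells (log2 change 0.14, adjusted p = 0.0362). The adjusted p-values of LINC00472, LINC00674 and LINC00641 without pair 1 were 0.08201, 0.102 and 0.06096, and DESeq2 gave 0.0917, 0.283 and 0.2295 with the block. Without pair 4 they were 0.0872, 0.151 and 0.126, without pair 3 LINC00674 and LINC00641 had 0.162 and 0.119, and without pair 2 LINC00641 had 0.122.

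**Figure D4:**
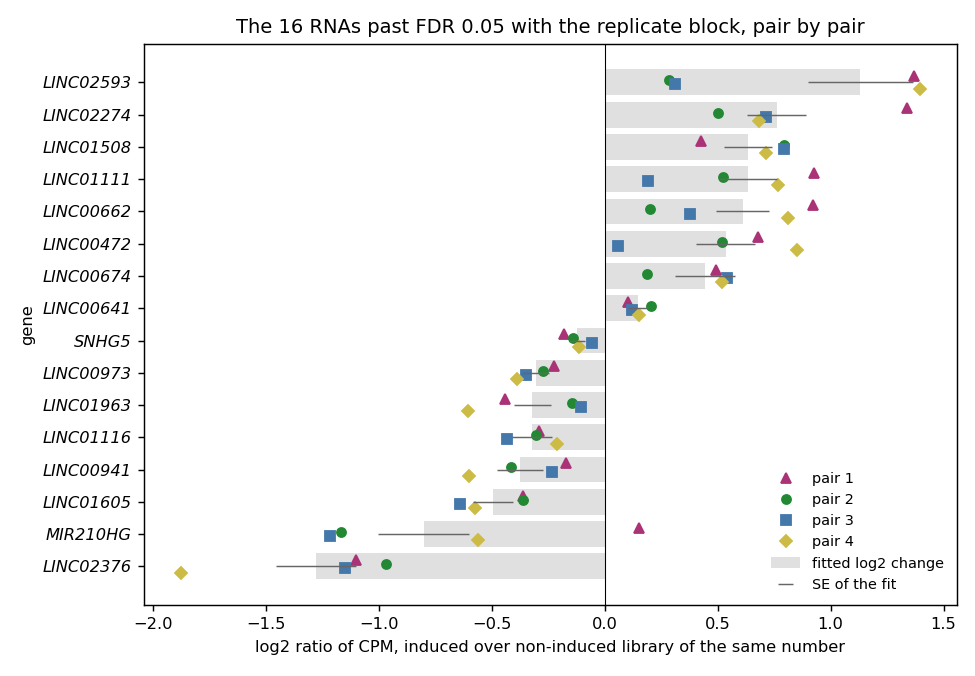
Log2 ratio of CPM, induced over non-induced library of the same number (x axis), for the 16 RNAs past an adjusted p of 0.05 with the replicate block, with a symbol for each of 4 pairs, grey bars for the log2 change fitted by edgeR and thin lines for its SE. Every symbol lies on the side of its bar except that of MIR210HG in pair 1, at 0.15. The RNAs were chosen by a fit on these same pairs, so the shared sides are no separate support.

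In both groups alike, the libraries numbered 1 stood apart for a few of the 132 RNAs, at shares near those of all tested genes. Both lay at least 2-fold above the mean of the other 3 libraries of their group for 3 of the 132 RNAs. They were LINC02593, LINC01508 and LINC00511, against 271 of 15637 tested genes (1.73%). Both lay at least 2-fold below that mean for 5 of the 132 RNAs. They were LINC02376, LINC01835, LINC02535, MIR100HG and LINC01116, against 465 of 15637 tested genes (2.97%). The shift of the libraries numbered 1 is thus not shown to be particular to the class. For LINC02376 the log2 distance was -2.81 in induced and -3.04 in non-induced cells, and for LINC02593 it was 3.19 and 2.48. LINC00511, named after its values were seen, had 64.4, 22.4, 33.5 and 41.5 CPM in induced cells, against 64.2, 23.4, 29.5 and 35.4 CPM in non-induced cells. Its library 1 stood out in both groups and its log2 change was 0.09 ± 0.05 with the block (edgeR, adjusted p = 0.322). The proliferation gene MKI67 had 502, 661, 666 and 594 CPM in induced cells, against 458, 591, 639 and 534 CPM in non-induced cells, lowest in the library numbered 1 in both groups. CRB2 was also lowest there, at 1734 CPM in induced library 1. The part of culture state, or of the lower CRB2 level, in these values was not tested.

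**Figure D5:**
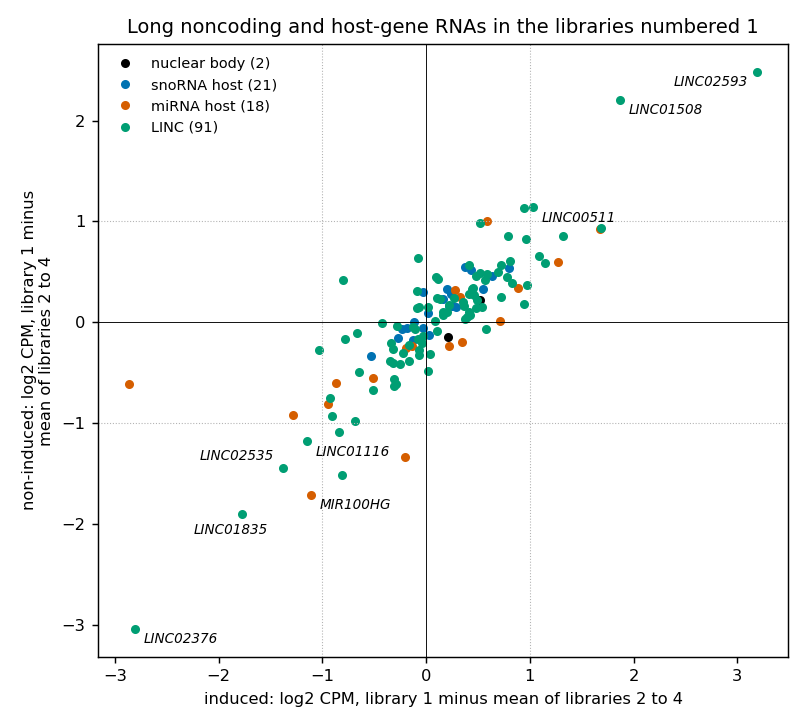
Log2 CPM of the library numbered 1 minus the mean of the libraries numbered 2 to 4, in induced cells (x axis) and in non-induced cells (y axis), for the 132 RNAs coloured by class, with dotted lines at 2-fold. Most RNAs lie near the diagonal, LINC02593 and LINC01508 at the upper right and LINC02376 at the lower left, and 1 miRNA host, MIR3142HG, lies at -2.86 in induced and -0.61 in non-induced cells.

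A tested coding gene was nearest to, or overlapped, 102 of the 132 RNAs, and the log2 changes with the block of RNA and neighbour had a Pearson r of 0.20 and a Spearman rho of -0.01 across these 102 pairs, which share libraries and, in part, reads. The gene models of 35 RNAs overlap a coding gene, 22 of them on the opposite strand, and the exons of 24 RNAs overlap exons of that gene. The library kit keeps strand, but no label or header says whether reads were counted by strand. Reads from the shared stretches of these 22 and of their partners therefore cannot be told apart with certainty. Exons shared on the same strand, as between SNHG3 and RCC1 (242 bases) or LINC01089 and RHOF (1724 bases), are not told apart by strand either. Of 14 called RNAs with a tested neighbour, 9 had a neighbour with the same sign of change, and 2 neighbours (14.3%) were called too, near the 13.8% of all tested genes. LINC01111 lies 156863 bases from ZFHX4, a zinc finger homeobox gene on the same strand, which averaged 96.0 ± 23.8 CPM in induced cells and 63.1 ± 15.99 CPM in non-induced cells (SD, n = 4 each). The log2 change of ZFHX4 was 0.60 ± 0.07 (edgeR with the block, SE, adjusted p = 0.000449), next to 0.63 for LINC01111, and it held without pair 1 (adjusted p = 0.00336). LINC02593 starts 2912 bases from SAMD11, on the opposite strand, whose log2 change was 0.91 ± 0.15 (adjusted p = 0.00144, and 0.0591 without pair 1), next to 1.13 for LINC02593. LINC00941 starts 216 bases from CAPRIN2 on the opposite strand. CAPRIN2 averaged 22.2 ± 3.58 CPM in induced cells and 23.8 ± 3.31 CPM in non-induced cells (log2 change -0.10 ± 0.06, edgeR with the block, adjusted p = 0.324).

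Long noncoding RNAs outside the symbol rule were read from a list of 35 named RNAs, of which 26 were tested. None passed without the block, and with it 3 were higher and 2 lower in induced cells, against 7.51% and 6.29% of all tested genes. OIP5-AS1, the human counterpart of the conserved noncoding RNA Cyrano, had 177, 122, 115 and 123 CPM in induced cells, against 144, 111, 101 and 101 CPM in non-induced cells. Without the non-induced library 1 the groups would not overlap, and the log2 change with the block was 0.23 ± 0.04 (edgeR, adjusted p = 0.00215). HOXA-AS2, antisense to the HOXA cluster, was higher by 0.31 (adjusted p = 0.0242) and DANCR, which itself hosts a snoRNA, by 0.15 (adjusted p = 0.03598). UCA1 was at 18.3 ± 8.41 CPM in induced cells and 21.5 ± 10.04 CPM in non-induced cells (SD, n = 4 each; log2 change -0.23, edgeR with the block, adjusted p = 0.0282). ZFAS1, a host of C/D box snoRNAs, was at 85.8 ± 4.28 CPM in induced cells and 94.02 ± 3.46 CPM in non-induced cells and lower in 4 of 4 pairs (log2 change -0.13, adjusted p = 0.0382). OIP5-AS1 kept its call by DESeq2 and without any 1 pair. HOXA-AS2, DANCR, UCA1 and ZFAS1 did not pass by DESeq2 with the block (adjusted p = 0.197, 0.251, 0.185 and 0.159), without pair 3 or without pair 4 (edgeR, 0.137, 0.0884, 0.102 and 0.124 without pair 4), and of these 4 only DANCR did not pass without pair 1 (0.0844).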

How the data were processed

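RNA was isolated from the cells with a column kit, made into directional libraries and sequenced as single reads, per the labels' protocols. The authors deposited raw read counts per Ensembl gene and a second table of normalized signal; the deposited signal is the raw count divided by 1 factor per library and was used only to check that proportion. Named in the submitters' processing notes, without roles, are HTSeq 0.11.1, HISAT2 2.1.0, DESeq2 1.24.0, Trimmomatic 0.38 and bcl2fastq, with GRCh38 and hg38 as builds. The annotation release and whether reads were counted by strand are not given in the sources read here.

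Symbols, types and positions came from GENCODE 29, which held 58275 of 58395 gene IDs, and the rule used GENCODE symbols. The members and all lists were chosen with earlier results of these data known. The filter filterByExpr (minimum count 10) passed 15637 genes, which were scaled by TMM and compared with the quasi-likelihood test of edgeR 4.0.16 in R 4.3.3 (robust, two-sided, Benjamini-Hochberg over all tested genes, threshold 0.05), first without and then with the replicate number as a block. The steps were tested on simulated counts with 200 changed genes. Totals ranged from 16829454 to 23081616 counts, and floors cover counting error only. Since no label calls the replicates separate cultures, the p-values reflect only how much these 8 samples vary, which may be technical. The pairing comes from the shared numbers. In deviations from the group means, each library correlated most with the library of its own number (0.648 to 0.911). Those means include library 1, which stood apart in both groups, so libraries 2 to 4 lean the same way whatever their number. Unlike-numbered libraries among 2 to 4 correlated at 0.3495 to 0.667, the highest above the 0.648 of the libraries numbered 4. The correlations alone therefore do not settle that the numbers pair the libraries.

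Named RNAs were GAS5, MALAT1, NEAT1, the 10 of highest mean CPM, all called without the block, those called with the block and of 1 sign in 4 of 4 pairs, the 4 of smallest p per class, those at the CPM threshold, and up to 4 called genes per list; MIR3142HG, LINC00511, LINC00958, LINC02001, LINC00672, LINC01547, LINC01270, LINC00920, LINC01835, LINC02535, MIR100HG, SNHG19, SNHG8 and a few list or marker genes were named after their values were seen. Some marker genes are not reported here. Alternatives were DESeq2 1.42.0, RLE, upper quartile and library total scaling, no filter, no robust estimation, a threshold of 0.01, leaving out libraries or pairs, and other member rules.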

Additional observations from a re-analysis of the deposited data

Results flagged for a closer look

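Among the named RNAs and CRB2, 10 of 68 groups of 4 libraries had 1 library far from the other 3, by a gap past the 95% limit of Dixon's test. Chance gives about 1 in 20 groups. All 10 were libraries numbered 1. Over all 264 groups of the 132 RNAs the share was 8.33%, against 10.9% over all tested genes.

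Several lay high. NEAT1 had 835 CPM in induced library 1, against 558 to 599 CPM in induced libraries 2 to 4. GAS5 had 307 CPM in non-induced library 1, against 242 to 247 CPM in the other non-induced libraries. LINC02593 had 7.998 CPM in induced library 1 and 3.03 CPM in non-induced library 1, against at most 1.26 CPM in the other induced and 0.7003 CPM in the other non-induced libraries. Non-induced library 1 was also high for LINC01508 (14.1 CPM, against 2.33 to 4.19 CPM), LINC00662 (21.7 CPM, against 11.3 to 12.98 CPM) and MIR4458HG (10.5 CPM, against 8.36 to 8.54 CPM).

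The other cases lay low. CRB2 had 1734 CPM in induced library 1, against 4252 to 4599 CPM in the other induced libraries. LINC01963 had 17.6 CPM in induced library 1, against 26.8 to 28.2 CPM, and LINC02274 had 1.54 CPM in non-induced library 1, against 4.48 to 4.67 CPM.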

How the results depend on the processing

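The replicate block decided the calls. It took the 132 RNAs from 0 to 16 called, snoRNA hosts from 0 to 1, miRNA hosts from 0 to 1, LINC genes from 0 to 14, the listed genes from 0 to 20 and all tested genes from 6 to 2159. Without the block, the count for the 132 RNAs was 0 in all other settings run, leaving out any library included; for all genes it was 240 by DESeq2, 37 without the filter, 3 at a threshold of 0.01 and 3 to 16 with 1 library left out, and DESeq2 called 1 listed gene. With the block, DESeq2 called 8 of the 132 RNAs (8 LINC genes, 0 snoRNA hosts, 0 miRNA hosts), 5 listed genes and 1107 of all genes. The threshold of 0.01 left 7 (7 LINC genes, 0 and 0 hosts), 3 listed genes and 895 of all. Leaving out 1 pair gave 7 to 14 of the 132 RNAs, 0 to 2 snoRNA hosts, 0 to 2 miRNA hosts, 7 to 12 LINC genes, 3 to 13 listed genes and 909 to 1969 of all (1254 without pair 3). No filter gave 3 snoRNA hosts and 3 miRNA hosts, and library totals gave 2 snoRNA hosts. Members taken by current symbols were 152, of which 121 were shared and 19 were called with the block. CRB2 kept its call in all settings, at 7.25 to 7.75 with 1 library left out. Signs turned only for log2 changes that had not passed. SNHG1 without the block (near 0) became 4.63e-06 with it, 0.0017 on library totals and -0.066 to 0.058 with 1 library left out; with the block it was -0.0035 by DESeq2, -0.0033 by RLE, -0.0072 without the filter, -0.0097 by upper quartile and -0.055 to 0.033 with 1 pair left out (-0.0049 without pair 3). With 1 library left out, the unblocked ranges were -0.023 to 0.19 for NEAT1, -0.066 to 0.061 for SNHG3, -0.41 to 2.42 for LINC02593 and -0.15 to 1.51 for LINC01508, and with 1 pair left out SNHG3 ran -0.051 to 0.10 (-0.0102 without pair 1). The causes were not tested. Depth limits low RNAs: in the libraries numbered 1, LINC02376 had 4 reads in induced and 11 reads in non-induced cells.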
